A study of Mus musculus with 6 samples.

Results

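Egr1, Egr2, Egr3, Egr4, Nr4a1, Fos, Fosb, Jun, Junb and Ier2 are immediate early genes, and their levels were described across the B cells, T/NK cells and macrophages of the mouse peritoneal cavity. They are 10 of the 55538 features in the count table, of which 24015 had at least 1 unique molecular identifier (UMI, the tag that marks 1 captured RNA molecule). The set was chosen for its measured levels, shares of cells and co-detection in these same cell classes, so those values are given as a description without a test. Adherent peritoneal cells of C57BL/6 mice (C57BL/6J in the study's methods) were profiled by 10x Genomics 5′ single-cell RNA sequencing. The 6 samples were WT (genotype MerTK +/+) and MerKD (genotype MerTK -/-) cells, each after a media change (control) or after 2 or 6 hours of co-culture with ACs, which were UV-irradiated Jurkat cells, a human T cell line. MerTK is a receptor by which macrophages recognise and engulf apoptotic cells. There was 1 library for each genotype and condition, made from cells pooled over mice, and the labels call the cells peritoneal macrophages. The barcodes carry library numbers 1 to 6, which no label ties to a genotype or time, so no condition was compared and each value is given by library number.

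Immediate early genes are transcribed within minutes of a stimulus from transcription factors already present in the cell, without new protein synthesis. EGR proteins are zinc finger factors that bind GC-rich sites, NR4A proteins are orphan nuclear receptors, and FOS and JUN proteins pair to form AP-1. In B cells the EGR and NR4A genes are well known as early targets of antigen receptor signalling, and in macrophages AP-1 and EGR genes respond to microbial products, growth factors and handling of the cells. IER2 is a small nuclear protein of the same early response that belongs to none of these families.

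The table held 7760 barcodes, and 7665 were kept, those with 500 or more detected genes, a complexity (log genes divided by log UMIs) from 0.8 upward and no more than 10% mitochondrial counts. Libraries held 1005 to 1612 barcodes and 4234786 to 10287079 UMIs, with 2776 to 5786.5 UMIs in the median cell. Across libraries, 28 barcode sequences occurred more than once. B cells (Cd79a and Cd79b summing to at least 4 UMIs) numbered 2948, T/NK cells (Cd3d, Cd3e and Nkg7 summing to at least 2) 514, and macrophages (Csf1r, Adgre1 and Fcer1g summing to at least 2, with at most 2 B cell and 1 T/NK gate UMIs) 2773. A further 153 cells met both the B cell and the T/NK rule and were left out of both, and 1277 met none. The 9 macrophage markers summed to 18653 to 23325 CPM (UMIs of a gene per 1000000 UMIs) in the macrophages of each library, 113 to 662 CPM in B cells and 44.4 to 5959 CPM in T/NK cells, and none was at 0 in any class. The 7 B cell markers summed to 3950 to 5440 CPM in B cells and 17.1 to 76.4 CPM in macrophages. Median depth was 5416 UMIs in B cells, 4426 in macrophages and 2813.5 in T/NK cells, so shares of cells with a UMI are given after every cell was thinned to 1500 UMIs, with the unthinned share beside the shares of a class or gate.

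The promoter stretches of Egr4 and Nr4a1, which were detected in the same B cells, and of Fos and Junb, which stood higher in macrophages, show the letters around these starts. RefSeq promoters (build GRCm38.p6), matched by symbol, were examined for 7 of the 10 genes. None was examined for Egr1, Egr3 and Ier2, so the motif counts leave these genes out. Being left out does not mean that a gene lacks a RefSeq promoter or any of these motifs. The 250 bases before the start are printed 5′ to 3′ on the gene's strand, at chr6:85513590-85513839 (minus strand) for Egr4, chr15:101266596-101266845 (plus strand) for Nr4a1, chr12:85473640-85473889 (plus strand) for Fos and chr8:84978749-84978998 (minus strand) for Junb. Capitals mark the core TGACG of the cyclic AMP response element (CRE) on either strand, and in Nr4a1 also 1 match to the EGR site.
Egr4: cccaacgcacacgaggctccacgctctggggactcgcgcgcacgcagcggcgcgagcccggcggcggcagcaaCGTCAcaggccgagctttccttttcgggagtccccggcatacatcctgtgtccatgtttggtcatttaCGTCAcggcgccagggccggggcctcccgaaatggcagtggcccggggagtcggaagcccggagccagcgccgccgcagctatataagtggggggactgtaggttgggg
Nr4a1: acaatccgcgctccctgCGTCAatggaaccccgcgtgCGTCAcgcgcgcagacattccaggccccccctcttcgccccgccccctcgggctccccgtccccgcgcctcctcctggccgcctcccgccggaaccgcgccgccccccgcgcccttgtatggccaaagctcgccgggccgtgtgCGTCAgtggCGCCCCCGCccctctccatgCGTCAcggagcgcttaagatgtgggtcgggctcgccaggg
Fos: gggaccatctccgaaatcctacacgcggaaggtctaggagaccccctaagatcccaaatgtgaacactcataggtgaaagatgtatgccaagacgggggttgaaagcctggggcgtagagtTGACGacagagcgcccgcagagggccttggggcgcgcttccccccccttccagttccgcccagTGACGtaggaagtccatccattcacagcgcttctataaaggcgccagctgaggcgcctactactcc
Junb: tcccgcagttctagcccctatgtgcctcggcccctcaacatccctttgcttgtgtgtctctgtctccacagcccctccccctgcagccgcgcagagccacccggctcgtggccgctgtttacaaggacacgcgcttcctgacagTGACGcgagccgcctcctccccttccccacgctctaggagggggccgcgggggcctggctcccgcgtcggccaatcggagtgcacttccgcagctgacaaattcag
The core TGACG occurred in 6 of the 7 matched genes (Egr2, Egr4, Nr4a1, Fos, Fosb and Junb) and in 17.8% of 32851 promoters of the same length. Egr2 had 5 windows and the other matched genes 1 each, and a gene was counted if any of its windows matched. The percentages of promoters count single windows, so they are not a like measure for Egr2. The EGR site GCGNGGGCG was found before Nr4a1 and Fosb and in 4.70% of promoters. The serum response element was found before Egr2 alone among the 7 and in 1.47% of promoters. No window of the 7 held the full CRE TGACGTCA (1.55% of promoters), which contains the core, the AP-1 site TGANTCA (6.75%) or the NR4A site AAAGGTCA (1.34%). The Nr4a1 window precedes a start within the annotated span of the gene. In the GENCODE annotation of GRCm38, the genes lie at chr6:85511121-85513589 (Egr4), chr15:101254269-101274795 (Nr4a1), chr12:85473890-85477273 (Fos) and chr8:84974484-84978718 (Junb). Junb overlaps Prdx2 and Jun overlaps the antisense gene Junos on the opposite strand, and how strand was used in counting is not given in the sources used here.

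Egr3, Egr4 and Fosb were higher in B cells than in macrophages in each of the 6 libraries, and Egr2, Fos, Jun and Junb were higher in macrophages in each. Egr1 was higher in macrophages in 5 libraries, Nr4a1 was higher in B cells in 4, and Ier2 was divided 3 and 3. At a threshold of 2 times in every library, only Egr4 passed on the B cell side, 1 of the 9 members that had a mean of at least 5 CPM over the 2 classes, beside 11.8% of 9394 features. On the macrophage side Fos and Junb passed, 2 of 9, beside 12.3% of features. Without the threshold of 2 times, Egr3 and Egr4 were higher in B cells in every library beside 35.5% of features, and Egr2, Fos, Jun and Junb in macrophages beside 28.3%. Fosb was below 5 CPM on average and was not tested, and Egr4 passed that minimum only through its level in B cells. Since the set was chosen on this contrast, nothing is read from these counts.

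**Figure D1:**
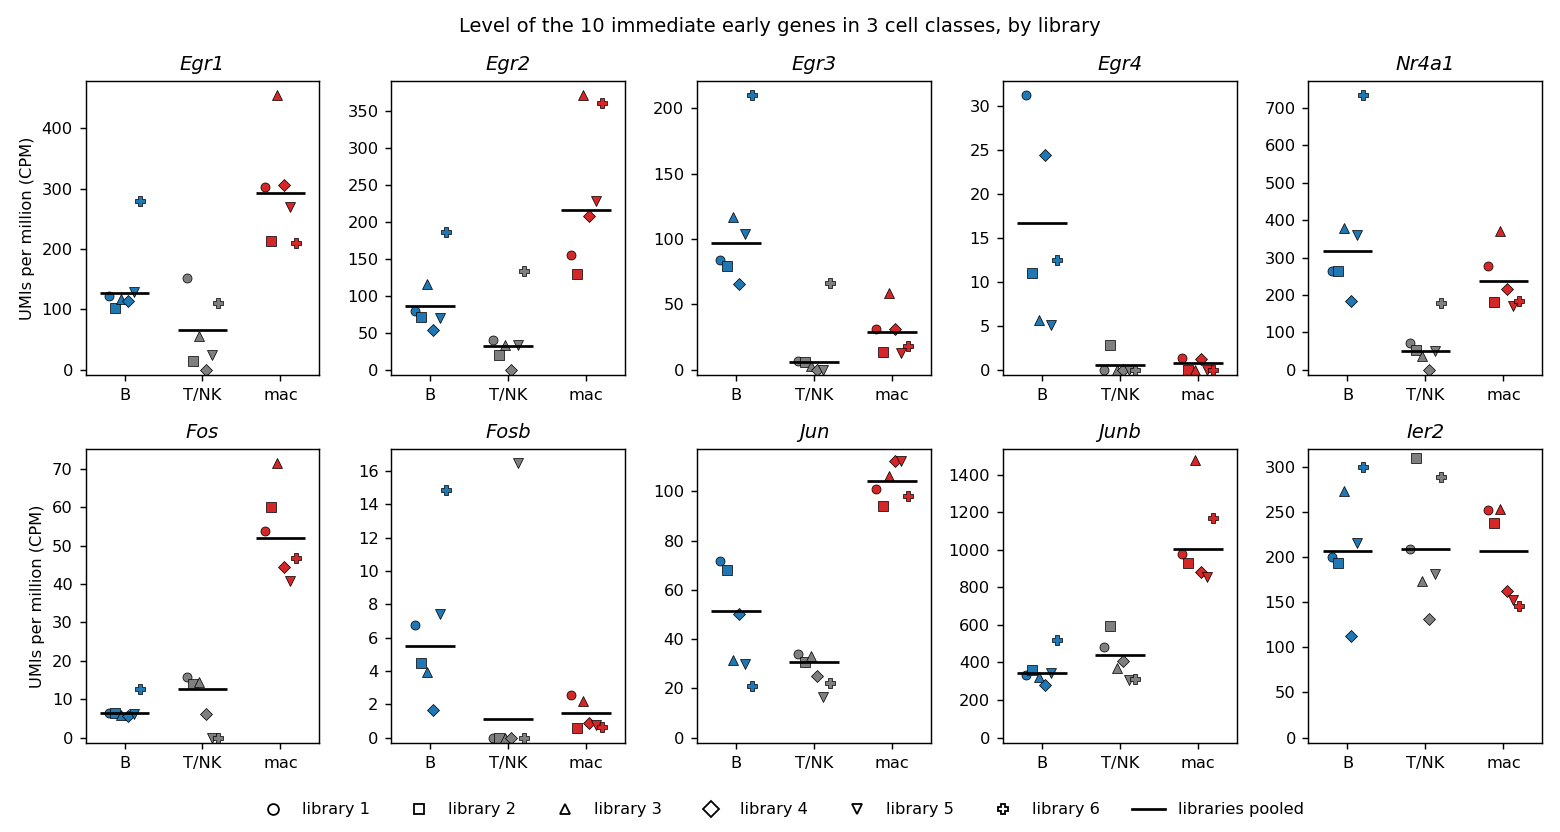
Each panel plots 1 gene's CPM (linear axis) in B cells, T/NK cells and macrophages, with 1 symbol per library and a line at the level of the pooled libraries. Fos, Jun and Junb of macrophages lie above those of B cells without overlap, Egr3 and Egr4 lie the other way, and library 6 is the highest B cell symbol for 8 of the 10 genes.

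Egr4, the fourth EGR zinc finger factor, was found almost entirely in B cells. Its level in the B cells of libraries 1 to 6 was 31.3, 10.997, 5.61, 24.5, 5.09 and 12.5 CPM. Macrophages held 10 Egr4 UMIs in all, 6 in library 1 and 4 in library 4, and T/NK cells held 1. The classes did not overlap, and the pooled B cell level of 16.7 CPM (exact Poisson 95% interval 14.8 to 18.6) was 23.0 times that of macrophages, with an interval of 3.62 to 5.60 on the log2 scale. At 1500 UMIs, 27 of 2910 B cells (0.928%, exact interval 0.612 to 1.35) and 3 of 2690 macrophages (0.112%) had an Egr4 UMI, and none of 498 T/NK cells did, which allows a share of up to 0.738%. Unthinned, the shares were 2.58%, 0.216% and 0.195%. These intervals cover counting error only.

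Egr3, which with Egr2 is known as a brake on lymphocyte activation, measured 83.9, 79.6, 117, 65.3, 104 and 210.5 CPM in the B cells of libraries 1 to 6. In macrophages it measured 31.3, 13.3, 58.6, 31.2, 13.1 and 18.0 CPM. Every B cell value lay above every macrophage value, and within a library the B cell level was 1.99 to 11.7 times the macrophage level, lowest in library 3. T/NK cells held 10 Egr3 UMIs in all (5.50 CPM). At 1500 UMIs, 8.52% of B cells (7.53 to 9.60), 2.79% of macrophages and 0.402% of T/NK cells had an Egr3 UMI, in that order. By CPM the 18 T/NK cells of library 6, with 3 UMIs at 66.6 CPM, stood above every macrophage library and above the B cells of library 4. B cell markers summed to 1553 CPM in these T/NK cells, against 106 to 346 CPM in T/NK cells of the other libraries, and their part in this value was not tested. Unthinned, these shares were 17.2%, 6.45% and 1.56%.

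Fosb, an AP-1 partner of the JUN proteins, was sparse in every class. B cells held 102 UMIs (5.52 CPM, 4.50 to 6.70), macrophages 20 (1.45 CPM) and T/NK cells 2. By library, B cells measured 6.74, 4.45, 3.93, 1.63, 7.40 and 14.9 CPM and macrophages 2.53, 0.556, 2.17, 0.883, 0.770 and 0.642 CPM. The ranges overlapped, since B cells of library 4 stood below macrophages of libraries 1 and 3, although within each library B cells were higher.

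Fos, the prototype FOS member of AP-1, ran the other way. Macrophages measured 53.9, 60.03, 71.6, 44.4, 40.8 and 46.9 CPM in libraries 1 to 6, and B cells 6.30, 6.28, 5.89, 5.55, 6.01 and 12.5 CPM. The classes did not overlap, and the pooled macrophage level was 8.03 times that of B cells (B cells over macrophages, log2 ratio -3.01, interval -3.30 to -2.72). At 1500 UMIs a Fos UMI was found in 6.21% of macrophages (5.33 to 7.19), 0.790% of B cells and 1.81% of T/NK cells, and unthinned in 15.1%, 2.75% and 3.50%. When the 101 B cells with at least 2 macrophage gate UMIs were left out, the B cell level was 5.001 CPM. At 1500 UMIs the B cell share was below that of T/NK cells, with intervals that overlapped (0.502 to 1.18 and 0.830 to 3.40). By pooled CPM B cells were also lower (B cells over T/NK cells, log2 ratio -0.96, interval -1.61 to -0.25), and in 4 libraries. T/NK cells held 23 Fos UMIs in all.

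Junb, an AP-1 member that many leukocytes carry at rest, was detected in every class. It measured 975, 929, 1477, 879, 853 and 1167 CPM in the macrophages of libraries 1 to 6, and 333, 360.3, 321, 280.0, 346 and 517 CPM in their B cells. The classes did not overlap, and macrophages were 2.26 to 4.60 times higher within a library. T/NK cells, at 305 to 592 CPM, overlapped B cells and not macrophages. At 1500 UMIs, 64.8% of macrophages, 39.0% of T/NK cells and 32.6% of B cells had a Junb UMI, and unthinned 85.8%, 59.9% and 63.1%.

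Jun, the prototype partner of FOS in AP-1, was nearly level across the macrophages of the 6 libraries, at 101, 93.9, 106, 112, 112 and 98.3 CPM. In B cells it measured 71.7, 68.1, 31.4, 50.3, 30.1 and 21.1 CPM. All macrophage values lay above all B cell values, and the B cell values spread 3.39-fold between library 1 and library 6 against 1.20-fold in macrophages. T/NK cells, at 16.5 to 34.0 CPM, overlapped B cells. At 1500 UMIs, 13.4% of macrophages (12.1 to 14.7), 7.35% of B cells (6.43 to 8.36) and 2.81% of T/NK cells had a Jun UMI, against 20.4%, 29.3% and 7.20% of B cells, macrophages and T/NK cells unthinned.

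Egr2, a factor of myeloid cells as well as of activated lymphocytes, measured 155, 130, 372, 208, 229 and 361 CPM in the macrophages of libraries 1 to 6. B cells measured 79.95, 71.2, 116, 53.2, 69.9 and 186 CPM. Macrophages were higher within every library, by 1.82 to 3.91 times, but the ranges overlapped, because B cells of library 6 stood above macrophages of libraries 1 and 2. At 1500 UMIs, 22.9% of macrophages (21.3 to 24.5), 8.21% of B cells (7.24 to 9.27) and 2.61% of T/NK cells had an Egr2 UMI, against 44.2%, 22.8% and 4.47% unthinned.

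Egr1, an EGR factor induced by many kinds of stimulus, measured 303, 213, 456, 306, 269 and 210.0 CPM in macrophages and 123, 102, 117, 114, 129 and 280.1 CPM in B cells. B cells of library 6 were 2.17 times as high as the next B cell library and were the only B cells above the macrophages of their own library. Without library 6 the log2 ratio of B cells over macrophages was -1.39, against -1.20 with all libraries. At 1500 UMIs, 16.4% of macrophages (15.0 to 17.9), 8.87% of B cells (7.86 to 9.96) and 2.21% of T/NK cells had an Egr1 UMI, and unthinned 24.7%, 17.6% and 4.86%.

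Nr4a1 encodes NUR77, a nuclear receptor used as a reporter of antigen receptor signalling. Its level in B cells was 264, 264, 379, 183, 359 and 735 CPM and in macrophages 277, 180.1, 370.3, 215, 171 and 185 CPM. The classes overlapped, with B cells below macrophages in libraries 1 and 4 and 3.98 times higher in library 6. At 1500 UMIs, 18.2% of B cells (16.9 to 19.7), 20.9% of macrophages (19.4 to 22.5) and 2.81% of T/NK cells had an Nr4a1 UMI, so the intervals of B cells and macrophages overlapped. Unthinned, the shares were 30.5%, 36.8% and 6.61%. A B cell with an Nr4a1 UMI held 6.51 of them on average in unthinned counts, a macrophage 3.21 and a T/NK cell 2.68.

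Ier2 did not separate the classes. It measured 112 (library 4) to 299.7 CPM (library 6) in B cells, 146 to 253 CPM in macrophages and 131 to 309.7 CPM in T/NK cells, and the pooled levels were 207, 207 and 208 CPM. The log2 ratio of B cells over macrophages was 0.0011, with an interval of -0.069 to 0.072. At 1500 UMIs, 20.6% of B cells, 21.8% of macrophages and 23.7% of T/NK cells had an Ier2 UMI. Unthinned, the order turned, with 47.9%, 44.4% and 44.2%.

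Library 6 was the highest in B cells for 8 members and the lowest for Jun. Its 284 B cells were the shallowest, at a median of 3866.5 UMIs against 5011.5 to 6861.5 in the others, with 3.73% mitochondrial counts against 2.99% to 3.30%. Macrophage markers summed to 113 CPM in these cells, the lowest of the 6 libraries. Library 4 was the lowest in B cells for 7 members. In macrophages library 3 was the highest for 7 members, and the 11 markers of large peritoneal macrophages summed to 5770 CPM there, against 3386 to 17983 CPM over the libraries.

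T/NK cells had the lowest pooled level of Egr1, Egr2, Egr3, Nr4a1 and Jun, and their macrophage markers varied from 44.4 CPM in library 6 to 5959 CPM in library 1. Egr4 and Fosb, with 1 and 2 UMIs in T/NK cells, were too sparse to be ordered against macrophages. The log2 ratios of macrophages over T/NK cells had intervals of -2.41 to 5.84 and -1.64 to 3.54. Egr1 was highest in T/NK cells of library 1, at 152 CPM, and was not detected in the 52 cells of library 4, while the 18 cells of library 6 held 5 UMIs (111 CPM). When the 47 T/NK cells with at least 2 macrophage gate UMIs were left out, Egr1 was 14.6 CPM in place of 65.4, Egr2 10.4 in place of 31.9, Nr4a1 27.8 in place of 50.0 and Fos 8.33 in place of 12.6. Junb was 397 in place of 439 CPM and Ier2 211 in place of 208 CPM. B cell markers in T/NK cells summed to 1553 CPM in library 6 and 106 to 346 CPM in the others. What part macrophage or B cell RNA had in these levels was not tested. B cells without such cells kept 123 CPM of Egr1, 95.7 of Egr3 and 318 of Nr4a1.

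B cells were divided at 1 UMI of Bhlhe41, Zbtb32 or Cd5, genes of the B-1 lineage that produces natural antibody, into 1356 cells of a B-1 gate and 1592 cells of a B-2 gate. The gates differ in depth, with medians of 6947 and 4282 UMIs. The 8 B-1 type markers, which include the gate genes, summed to 2900 CPM in the B-1 gate and 2485 CPM in the B-2 gate. The 5 B-2 type markers summed to 143 and 318 CPM, so the gates are named for the rule and are not pure lineages. Nr4a1 was higher in the B-1 gate in all 6 libraries, at 296, 333, 415, 192, 425 and 767 CPM against 218, 193, 312, 172, 278 and 686 CPM. It was the only member of 10 that was, beside 8.63% of 9271 features. Jun and Junb were higher in the B-2 gate in all 6 libraries, 2 of 10 beside 8.01% of features, and by small margins, with log2 ratios of -0.26 and -0.24. Egr4 was 3.68 times higher in the pooled B-2 gate (28.5 against 7.76 CPM) and higher there in 5 libraries, while in library 5 the B-2 gate had none. This rests on few cells, since 196 of the 226 Egr4 UMIs in the B-2 gate lay in 13 cells with at least 5 each, and outside such cells the B-2 gate held 30 UMIs and the B-1 gate 52. A UMI of Egr4 was found in 0.739% of the B-1 gate and 1.09% of the B-2 gate at 1500 UMIs, but in 3.10% and 2.14% unthinned. Macrophage markers summed to 281 CPM in the B-1 gate and 599 CPM in the B-2 gate, and their part in these differences was not tested. Egr2 was higher in the B-1 gate in 5 libraries, at 96.8 against 73.4 CPM pooled. Egr3 was level by CPM, at 98.2 and 96.1 CPM. Its share at 1500 UMIs was higher in the B-1 gate in all 6 libraries (pooled 10.04% against 7.20%, and 23.1% against 12.2% unthinned). With stricter gates its log2 ratio was 0.49 in place of 0.031, so no order is read for Egr3. Egr1 was higher in the B-2 gate in 4 libraries (143 against 116 CPM pooled), while its share at 1500 UMIs was higher in the B-1 gate (10.3% against 7.58%, and 23.0% against 13.0% unthinned), so no order is read for it. With stricter gates its log2 ratio was 0.037 in place of -0.30.

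Macrophages were also divided by markers of the cavity's macrophage populations. A large peritoneal macrophage (LPM) gate held 1741 cells with at least 5 UMIs of 11 markers such as Gata6, Timd4 and Prg4, and a small peritoneal macrophage (SPM) gate held 363 cells with at least 3 UMIs of 8 markers such as Retnla, Ccr2 and Fcrls, each with at most 1 UMI of the other list. LPMs are the resident population of the cavity and SPMs derive largely from blood monocytes. The gates were set after member values had been seen, and there are 25 to 142 SPM gate cells in a library, so the comparison is given as a description.

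Egr1 and Egr2 stood in opposite order in these gates. Egr1 measured 339, 246, 743, 375, 334 and 355 CPM in the LPM gate of libraries 1 to 6 and 133, 29.2, 103, 39.1, 33.3 and 28.8 CPM in the SPM gate. The gates did not overlap, and the LPM gate was 2.54 to 12.3 times higher within a library (pooled log2 ratio 2.39, interval 2.10 to 2.69). Egr2 measured 126, 102, 331, 194, 224 and 286 CPM in the LPM gate and 411, 369.7, 488, 425, 311 and 514 CPM in the SPM gate. The SPM gate was higher within every library by 1.39 to 3.63 times, although the LPM gate of library 3 stood above the SPM gate of library 5, and at 1500 UMIs 41.6% of SPM gate cells (36.4 to 47.1) and 18.9% of LPM gate cells (17.0 to 20.8) had an Egr2 UMI, and unthinned 63.9% and 38.7%. Egr3 followed Egr2, with 24.4 CPM in the LPM gate and 65.9 CPM in the SPM gate and the SPM gate higher in all 6 libraries, on 2 to 40 UMIs of the SPM gate in each.

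Egr1, Jun, Junb and Ier2 were higher in the LPM gate in every library, 4 of the 8 members with a mean of at least 5 CPM, beside 11.6% of 8727 features. Egr2 and Egr3 were higher in the SPM gate in every library, 2 of 8, beside 13.1% of features. Fos was higher in the LPM gate in 5 libraries, at 58.8 against 18.2 CPM pooled (26 UMIs in the SPM gate), and Nr4a1 in 4, at 253 against 221 CPM. Ier2 measured 235 and 123 CPM, Jun 111 and 70.8 CPM, and Junb 1034 and 912 CPM, so the difference of Junb was the smallest of the 4. Egr4 and Fosb were below the minimum, with 7 and 13 UMIs in the LPM gate and 0 and 4 in the SPM gate. Median depth was 4829 UMIs in the LPM gate and 3408 in the SPM gate, and library 3 stood highest in the LPM gate for 7 members.

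**Figure D2:**
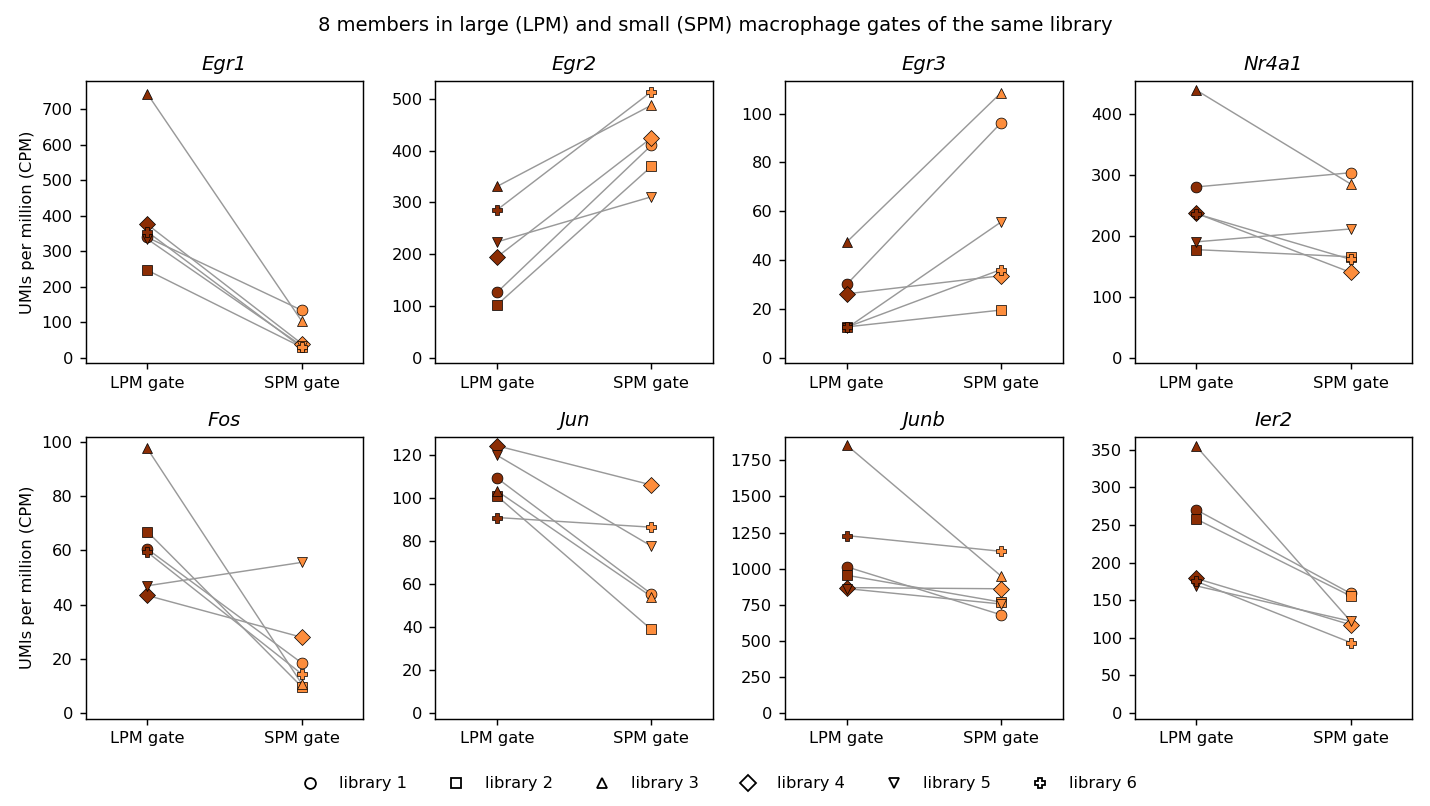
Each panel plots 1 member's CPM (linear axis) in the LPM and SPM gates, with a line joining the gates of the same library. All 6 lines slope down for Egr1, Jun, Junb and Ier2, all 6 slope up for Egr2 and Egr3, and those of Nr4a1 and Fos are mixed.

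The UMIs of several members were held by few cells, and this was not particular to the EGR genes. In B cells the highest 5% of cells (148 cells) held 69.2% of Egr1 UMIs, 67.7% of Egr3 UMIs, 47.8% of Egr2 UMIs and 47.1% of Nr4a1 UMIs, against 32.5% of Junb UMIs and 34.2% of Ier2 UMIs. For Jun the share in B cells was 46.8%, near those of Egr2 and Nr4a1, and for the sparse Egr4, Fos and Fosb it was 100%. In macrophages the highest 5% (139 cells) held 60.3% of Egr1 UMIs and 33.1% of Egr2 UMIs. The macrophage shares were 89.8% for Egr3, 60.03% for Fos, 46.3% for Nr4a1, 41.4% for Jun, 36.6% for Ier2 and 24.6% for Junb. These shares are of unthinned counts and move with the depth of cells.

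Egr4 was concentrated in few B cells. Of its 308 UMIs in B cells, 226 lay in 17 cells with at least 5 UMIs each, of which 13 were in the B-2 gate and 4 in the B-1 gate. These cells came from libraries 1 (6 cells), 2 (2), 3 (2), 4 (6) and 5 (1), and library 6 had none. All 17 held UMIs of Egr1, Egr3, Nr4a1, Junb and Ier2, and 13 held Egr2, but 5 held Jun, 5 held Fosb and 4 held Fos. They were deep cells, with a median of 10198 UMIs.

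Several EGR and NR4A members were found together in a fraction of cells. At 1500 UMIs, 146 of 2910 B cells (5.02%, 4.25 to 5.87) held at least 3 of Egr1, Egr2, Egr3, Egr4 and Nr4a1, with shares of 4.40%, 3.13%, 5.46%, 3.58%, 4.99% and 13.2% in libraries 1 to 6. Library 6 stood apart (9.34 to 17.8), and without it the share was 4.20%. In macrophages 111 of 2690 cells (4.13%, 3.41 to 4.95) held at least 3, with 4.65%, 1.72%, 10.2%, 3.83%, 3.21% and 3.25% by library, and here library 3 was the highest. In T/NK cells 1 of 498 cells did. All 5 members were found in 6 B cells and in no macrophage. Unthinned, the shares were 16.1% in B cells and 12.5% in macrophages. In the B-1 gate the share was 5.76% (4.58 to 7.14) and in the B-2 gate 4.37% (3.41 to 5.51), intervals that overlap, although unthinned the shares were 23.1% and 10.1%.

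**Figure D3:**
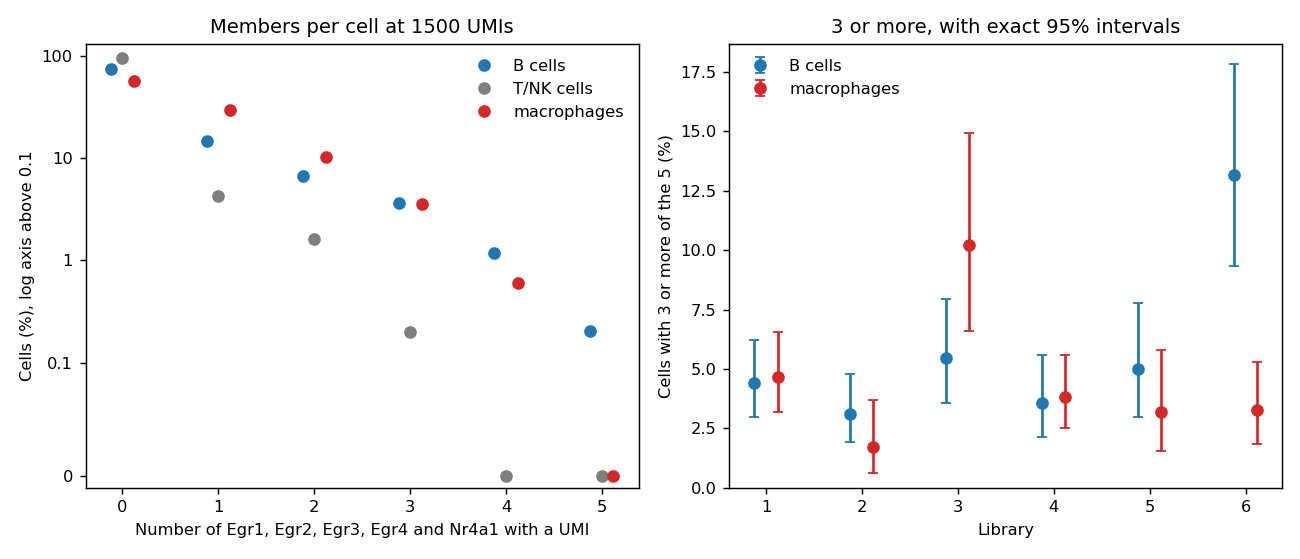
The left panel plots the percentage of cells (log axis above 0.1, at 1500 UMIs) that held 0 to 5 of Egr1, Egr2, Egr3, Egr4 and Nr4a1, and the right panel the percentage with at least 3 by library, with exact 95% intervals. At 1 and 2 members macrophages lie above B cells, at 4 and 5 members B cells lie above macrophages, and the highest shares by library are 13.2% in B cells of library 6 and 10.2% in macrophages of library 3.

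Within B cells the members were detected in the same cells more often than their separate shares gave, except for Jun. Co-detection was measured against the number of cells expected within strata of library and depth, as a Mantel-Haenszel odds ratio over 9 members with a UMI in at least 20 cells (Fosb was left out). Of 36 pairs, 31 had an odds ratio above 1, with a median of 3.92. Egr1 and Egr3 were found together in 105 B cells against 31.4 expected, Egr3 and Nr4a1 in 167 against 65.0, and Egr1 and Nr4a1 in 162 against 69.7, each above expectation in all 6 libraries. Egr3 and Egr4 were together in 17 cells against 2.78 expected. All 28 pairs without Jun were above 1, although those with Fos rest on 3 to 17 cells. Pairs of other genes were not measured, so no share over all pairs stands beside these counts. The set was also chosen in part on co-detection in these cells, so nothing is read from the counts of pairs.

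Jun was the exception. Of its 8 pairs in B cells, 5 were below 1, those with Egr1, Egr2, Egr3, Nr4a1 and Ier2. Jun and Nr4a1 were together in 15 B cells against 30.9 expected (odds ratio 0.386), Jun and Egr3 in 8 against 15.2, and Jun and Egr1 in 10 against 15.4, each above expectation in 1 library alone. Jun and Junb, at 70 cells against 69.0, lay at expectation. In the B-1 gate Jun and Nr4a1 were together in 6 cells against 17.5 and in the B-2 gate in 9 against 13.3.

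In macrophages the same measure gave 27 of 28 pairs above 1, with a median of 1.91 over 8 members (Egr4 and Fosb were left out). Egr1 and Nr4a1 were together in 216 macrophages against 97.5 expected, the highest odds ratio of the 28 at 5.13, and Egr1 and Ier2 in 198 against 100.5. No pair with Jun was below 1 here, but its pairs differed. Jun and Egr1 were together in 92 macrophages against 58.9 expected (odds ratio 1.98) and Jun and Nr4a1 in 93 against 74.2. Jun and Ier2, at 78 cells against 77.2 (odds ratio 1.01), lay at expectation. Egr2 and Fos were the pair below 1, at 34 cells against 36.5. Cells of 1 library share its preparation and are not replicates, so these odds ratios carry no test. In macrophages, too, pairs of other genes were not measured, and nothing is read from the counts of pairs.

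**Figure D4:**
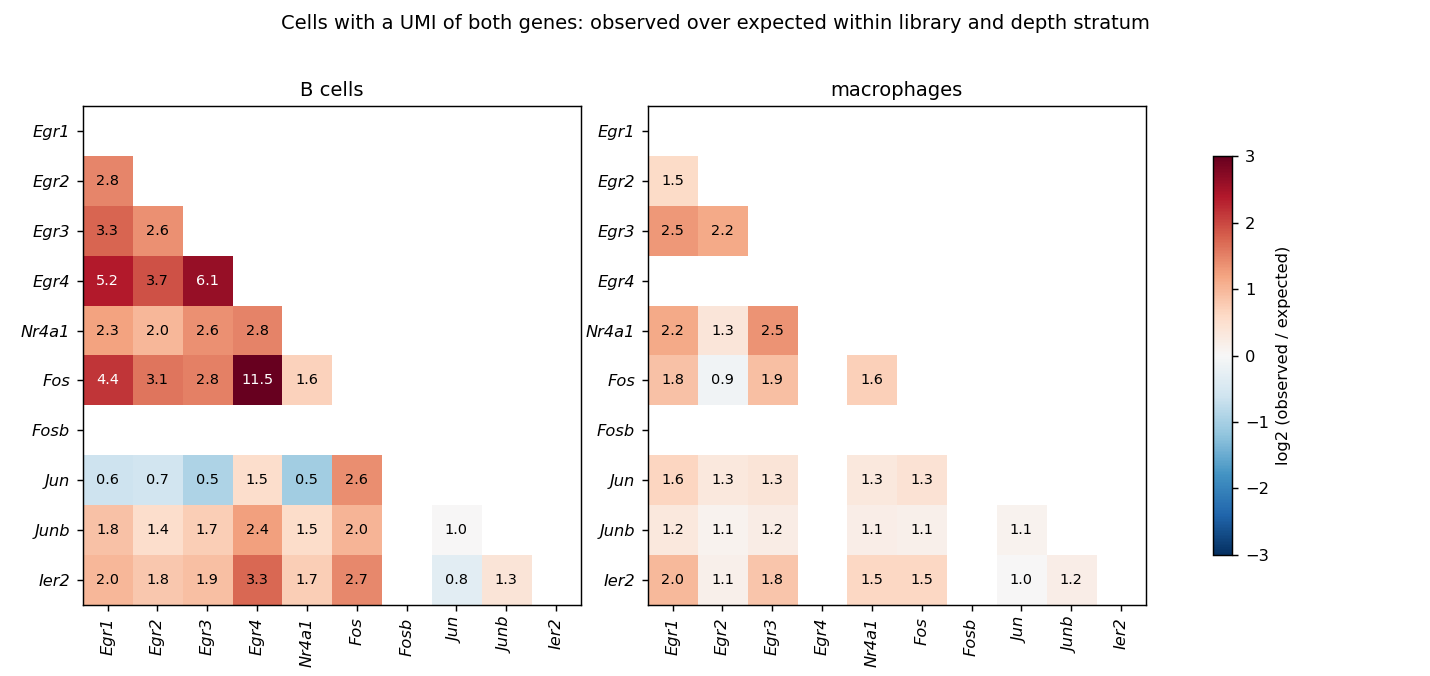
The 2 grids give, for each pair of members in B cells and in macrophages, the cells with a UMI of both genes over the number expected within library and depth strata (printed in the square, colour on a log2 scale), and blank squares are pairs with too few cells. In B cells the row of Jun is blue against Egr1, Egr2, Egr3 and Nr4a1 (0.486 to 0.670) while the squares among the EGR genes and Nr4a1 are red, and in macrophages the row of Jun is pale red (1.25 to 1.56).

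Other immediate early transcription factors were divided between the classes. Of 15 tested, Batf and Myc were at least 2 times higher in B cells in every library, and Atf3, Klf4, Klf6, Bhlhe40 and Ets2 in macrophages, with a median log2 ratio of -1.16 against 0.14 over all features. Over all features, 11.8% were called for B cells and 12.3% for macrophages by this rule. Atf3, a stress-induced factor of the ATF family, measured 31.3 CPM in B cells and 491 in macrophages, and Klf6 61.1 and 296 CPM. Nr4a3, the NR4A relative of Nr4a1, measured 213 and 68.1 CPM and was higher in B cells in all 6 libraries but by less than 2 times in at least 1. Jund did not differ by this rule, at 274 and 283 CPM.

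Feedback and signalling genes of the early response also went both ways. The counts of each list here stand beside 11.8% of all features called for B cells and 12.3% for macrophages by the same rule. Of 20 tested out of 23, Dusp2, Dusp4, Zfp36l1 and Cd69 were higher in B cells and Ier3, Dusp1, Dusp6, Gadd45a, Trib1 and Phlda1 in macrophages, with a median log2 ratio of -0.27. Ier3 measured 19.7 CPM in B cells and 909 in macrophages, Zfp36l1 352 and 122 CPM, Zfp36, which speeds decay of early transcripts, 362 and 726 CPM, and Pim1 276 and 334 CPM. Of 10 upstream factors, Mef2c was higher in B cells and Mef2a (57.6 against 212 CPM) in macrophages, while Mef2d measured 68.4 and 92.3 CPM and Crem 61.5 and 67.1 CPM. Of 13 B cell activation genes tested out of 14, 6 were higher in B cells (Cd83, Irf4, Nfatc1, Gpr183, Il2ra and Wnt1) and 2 in macrophages (Ccl3 and Tnfaip3). Cd83 measured 435 CPM in B cells and 121 in macrophages, Bcl2a1b 176 and 382 CPM, and the chemokine genes Ccl4 and Ccl3 649.8 and 1466 CPM and 213 and 1067 CPM. Of 9 inflammatory genes, 7 were higher in macrophages and none in B cells, with Cxcl2 at 112 and 4791 CPM, Il1rn at 82.1 and 1777 CPM, Il1b at 41.7 and 1024 CPM and Nfkbia at 147 and 421 CPM. The 4 heat shock genes tested out of 6 were called for neither class by this rule, with Hspa8, Hsp90aa1, Dnajb1 and Hsph1 at 482 and 239.9, 303 and 319, 25.6 and 27.9, and 21.6 and 22.9 CPM. Hspa8 was higher in B cells in all 6 libraries but by less than 2 times in at least 1.

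Among the genes most like the mean of Egr1, Egr2, Egr3 and Egr4, on the scale of log2(CPM + 10) over 24 class and library values (B-1 gate, B-2 gate, T/NK cells and macrophages in 6 libraries) were Tlr7, Sh3bp2, Cd86, Lat2, Malt1, Gm6377, Myo1e, Iqsec1 and Syvn1, with Pearson r of 0.92 to 0.88 among 7873 genes that averaged 10 CPM or more. Among the other members r was 0.93 for Nr4a1, 0.35 for Jun, 0.32 for Fosb, 0.29 for Ier2, 0.22 for Fos and 0.20 for Junb. The points share libraries and depth, and the genes named had their lowest pooled level in T/NK cells, as for Malt1, an adaptor of antigen receptor signalling, at 328 and 258 CPM in the B gates, 117 in T/NK cells and 259 in macrophages.

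Within B cells, the non-member genes with the highest odds ratios for the 146 cells with at least 3 of the 5 members were Actg1, Nfkbid, Ftl1, Cd69, Actb, Kdm6b, Myc, Dusp2, Plscr1 and Rpl38, among 3326 genes compared at 1500 UMIs. Actg1, Ftl1, Actb and Rpl38 each had a UMI in 99.3% of the 146 cells, against 82.9% to 96.6% of the other B cells. Their odds ratios therefore rest on very few cells without a UMI. Nfkbid, an atypical NF-κB inhibitor protein, had a UMI in 58.9% of these cells and 8.32% of the other B cells (odds ratio 11.2 within library and depth strata), Cd69, an early activation marker, in 33.6% and 5.43%, and Myc in 38.4% and 8.32%. Junb (72.6% and 30.5%) and Ier2 (60.3% and 18.5%) were also more frequent, and Jun (5.48% and 7.45%) was not. Of the genes listed above, 11 of 12 B cell activation genes, all 7 other early transcription factors and 11 of 12 feedback genes that could be compared had odds ratios above 1, beside 44.6% of all genes compared. Of the 7 upstream factors compared, 4 were above 1. Ccr7, a homing receptor named after its value was seen, was the B cell activation gene below 1, at 4.11% and 10.2%. The 146 cells had a median of 6549 UMIs against 5414.5 in the others, and 3.27% mitochondrial counts against 3.23%.

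Within macrophages, the corresponding genes in the 55 cells with Egr1 and either Fos or Fosb were Slpi, Btg2, Saa3, Rps4x, Ccrl2, Thbs1, Rpl32, Zfp36, Osm and Tgif1, among 3571 genes. Rps4x and Thbs1 had a UMI in 98.2% of the 55 cells, and Slpi, Saa3 and Rpl32 in 96.4%. The odds ratios of these genes rest on very few cells without a UMI. Btg2, an antiproliferative early gene, had a UMI in 67.3% of these cells and 19.1% of the others, Zfp36 in 83.6% and 52.3%, and Osm, a cytokine of the interleukin-6 family, in 45.5% and 15.5%. Saa3 is also a marker of the LPM gate. The 55 cells had a median of 5856 UMIs against 4544 in the others. Of 9 inflammatory genes, 8 had odds ratios above 1, with Il1b at 63.6% and 32.1%, beside 41.2% of all genes compared, while 11 of 15 feedback and signalling genes and 5 of 11 other early transcription factors did, and Atf3 (32.7% and 39.0%) and Jund (21.8% and 33.8%) were below 1.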

How the data were processed

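The 6 libraries were sequenced with the 10x Genomics 5′ kit, and the deposited table holds raw counts (UMIs per gene and barcode) that the authors made with Cell Ranger against mm10. The submitters' notes name Cell Ranger 2.2 and Seurat 3.0. Per the study's methods, reads were aligned to the mouse and the human genome and those mapped to mouse were kept. The members and lists were chosen with earlier results of these data known. Counts were summed by cell class and library number (0 columns of other samples were left out) and given as CPM. Poisson limits (exact, 95%) were set on counts and Clopper-Pearson limits on shares of cells, and both cover counting error only. Ratios carry exact conditional intervals. A count of 0 was given an upper limit or a floor of 3 counts. Features needed a mean of 5 CPM over the classes compared. Scrublet in scanpy 1.11.5 marked 40 of 7760 barcodes as doublets (0.515%), which were kept and left out as an alternative. Pairs of genes were compared by Mantel-Haenszel odds ratios within library and depth quintile, and scripts were tested on simulated data. All 10 members are named, with up to 4 genes of each list by summed UMIs and the 10 genes most like the members, of which 1 is not reported here. Alternatives changed cell filters, gates, doublets, CPM base, pooling, thinning, fold and libraries. Python 3.11.15, numpy 2.4.6, scipy 1.17.1, pandas 2.3.3 and matplotlib 3.10.9 were used. Promoters came from RefSeq (GRCm38.p6). Since the library numbers are not tied to samples, no test between genotypes or times was made.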

Additional observations from a re-analysis of the deposited data

How the results depend on the processing

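Egr4 was the 1 member at least 2 times higher in B cells in every library, and Egr3 joined it, giving 2, with cells of at least 1000 genes, without mitochondrial and immunoglobulin UMIs, at 1.5 times, at any size (chosen after seeing the data) and without library 3, with 1 to 2 over the libraries left out in turn. Members higher in macrophages rose from 2 to 4 at any size. The count of members with a higher pooled share in B cells than in macrophages (Egr3, Egr4 and Fosb, 3) was 3 to 5 with a library left out, and 5 without library 1. The median odds ratio of co-detection stayed between 2.98 and 4.11 in B cells and 1.74 and 2.08 in macrophages. The share of B cells with at least 3 of the 5 members, 5.02%, was 16.1% without thinning, 2.99% at 1000 UMIs and 4.20% to 5.55% with a library left out, lowest without library 6. The log2 ratio of Egr1 between the B-1 and B-2 gates reversed to 0.037 with stricter gates, and the cause was not tested. Egr4 in B cells was 11.8 CPM without library 1, and the log2 ratio of Nr4a1 between B cells and macrophages was 0.22 without library 6. Of 404 alternative log2 ratios for 29 comparisons of single members, 358 stayed within the interval of the reported value, 45 moved outside it and that of Egr1 reversed. Of the others, 9 changed sign, all for ratios whose interval includes 0: Ier2 between B cells and macrophages (5), Egr3 between the B-1 and B-2 gates (3) and Fosb between the LPM and SPM gates (1, 0.23 without library 1 in place of -0.97), so no direction is read for these. No paired test was made, since the set was chosen on these values. Samples could not be paired, because the library numbers are not tied to them. Cell classes were set side by side within each library. Egr4 and Fosb are limited by their few UMIs outside B cells.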

Other observations

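Library numbers carry no genotype or time, so the following are values of unassigned libraries. The libraries are grouped by the values themselves, differently in B cells and in macrophages, and the groupings are not groups of samples. How many features show such gaps was not counted, so nothing is read from them. In B cells, Egr3 was 104, 117 and 210.5 CPM in libraries 5, 3 and 6 and 65.3 to 83.9 CPM in the other libraries, and Jun was 30.1, 31.4 and 21.1 CPM in those libraries and 50.3 to 71.7 CPM in the others. Nr4a1 in the same B cells was 359, 379 and 735 CPM against 183 to 264 CPM. In macrophages, Ier2 was 238 to 253 CPM in libraries 1, 2 and 3 and 146 to 163 CPM in libraries 4, 5 and 6, while Jun was 93.9 to 112 CPM over all 6.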
